A study of Mus musculus with 28 samples.

Results

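The 9 genes described here encode transcription factors of the bone-forming lineage: *Runx1*, *Runx2*, *Runx3*, *Sp7* (osterix), *Dlx3*, *Dlx5*, *Dlx6*, *Prrx1* (Prx1) and *Twist1*. They were listed by name, and no cutoff on a measured value was applied. All 9 of 9 were found among the 53801 genes of the RNA-seq tables and passed the filter on low counts that left 13173 genes. The study sorted Ai9+ cells from mouse bone, Ai9 being a red fluorescent reporter that Cre recombinase switches on for good, in C57BL/6 mice with or without a conditional deletion (CKO) of *Zmpste24* (*Z24*), which encodes the protease that matures prelamin A. Bulk RNA-seq and ATAC-seq were each done with 3 control and 3 CKO libraries of gpSSPCs (Ai9+ CD73+ skeletal stem/progenitor cells of the growth plate) and of pSSPCs (Ai9+ Sca1+ cells of the periosteum) at 20 weeks of age. scRNA-seq was done with 1 library each of Prx1Cre; Rosa26Ai9 and OsxCre; Rosa26Ai9 cells at 8 weeks, and of control (PrxCre; Z24 fl/+) and CKO (PrxCre; Z24 fl/fl) cells at 16 weeks, the latter pair pooled from several mice. The titles separate control from CKO in the bulk libraries, whose genotype field reads PrxCre; Z24 fl/fl throughout, and the genotype field of the 8-week libraries names Z24 fl/fl, although the methods describe these mice by Cre and reporter alone.

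The RUNX factors share a DNA-binding domain and a common partner, CBFB; RUNX2 commits mesenchymal cells to the osteoblast fate and drives chondrocyte hypertrophy, RUNX3 acts with it in growth plate cartilage, and RUNX1 is best known from blood but is also made in skeletal progenitors. SP7 acts downstream of RUNX2 and is needed for osteoblasts to mature, while the DLX homeodomain factors, induced by BMP signals, switch on *Runx2*, *Sp7* and bone matrix genes. PRRX1 is a paired-type homeodomain factor of limb bud and periosteal mesenchyme, and TWIST1 is a helix-loop-helix factor that holds RUNX2 back in progenitors. Since the Cre of Prx1Cre is driven by a *Prrx1* regulatory sequence and that of OsxCre by a *Sp7* regulatory sequence, the reporter marks cells that descend from a cell in which that sequence was active at some time. The sort also took cells negative for CD45, Ter119 and CD31, markers of blood, erythroid and endothelial cells.

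In the mm10 (GRCm38) genome with GENCODE gene models, *Runx1* lies at chr16:92601466-92826149, *Runx2* at chr17:44495987-44814797 and *Prrx1* at chr1:163245119-163313710, all on the minus strand. *Runx3* lies at chr4:135120652-135177990 on the plus strand and *Sp7* at chr15:102356606-102367182 on the minus strand. *Dlx5* (chr6:6877805-6882085, minus) and *Dlx6* (chr6:6863334-6868568, plus) are neighbours, so their surroundings largely coincide. *Dlx3* lies at chr11:95120119-95125296 and *Twist1* at chr12:33957671-33959829, both on the plus strand. Antisense or overlapping genes are annotated at *Runx1*, *Runx2* (where *Supt3* and 3 *Runx2os* genes overlap it), *Runx3*, *Dlx6* (*Dlx6os1* and *Dlx6os2*) and *Prrx1*, and the strand setting of the counting was not given in the sources used here, so reads of these pairs may not have been told apart.

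Each RUNX gene has a distal and a proximal promoter. RefSeq (GRCm38.p6) promoter windows of 300 bases, from 250 before to 50 after a start, were at hand for 5 of the 9 genes. The windows below are shown because their starts had a strong ATAC-seq peak mainly in 1 population (*Runx1* distal, both of *Runx3*, *Prrx1*) or for comparison with these (*Runx2* distal). Capitals mark RUNX motif letters (TGTGGT, read as ACCACA on the other strand), GC box letters (GGGCGG or CCGCCC) and the homeodomain core (TAATTA), each sought on both strands.
Runx1 distal promoter, chr16:92826025-92826324, minus strand: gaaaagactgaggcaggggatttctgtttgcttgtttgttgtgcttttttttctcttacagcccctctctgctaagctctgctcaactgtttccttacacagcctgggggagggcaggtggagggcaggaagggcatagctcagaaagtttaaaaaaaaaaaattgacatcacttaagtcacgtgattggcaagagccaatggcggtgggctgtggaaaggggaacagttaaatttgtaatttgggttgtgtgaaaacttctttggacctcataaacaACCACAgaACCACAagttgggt
Runx2 distal promoter, chr17:44814578-44814877, minus strand: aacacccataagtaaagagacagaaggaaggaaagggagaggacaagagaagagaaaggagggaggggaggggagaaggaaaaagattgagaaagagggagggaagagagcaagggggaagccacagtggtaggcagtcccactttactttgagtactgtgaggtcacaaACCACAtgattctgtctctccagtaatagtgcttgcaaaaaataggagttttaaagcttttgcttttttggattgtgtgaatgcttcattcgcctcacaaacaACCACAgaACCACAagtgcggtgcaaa
Runx3 distal promoter, chr4:135120395-135120694, plus strand: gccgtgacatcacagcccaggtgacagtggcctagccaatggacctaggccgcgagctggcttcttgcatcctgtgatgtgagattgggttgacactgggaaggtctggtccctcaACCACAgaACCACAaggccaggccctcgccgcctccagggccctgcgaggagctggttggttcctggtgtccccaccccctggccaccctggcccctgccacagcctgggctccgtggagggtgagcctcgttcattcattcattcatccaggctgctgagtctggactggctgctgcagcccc
Runx3 proximal promoter, chr4:135152295-135152594, plus strand: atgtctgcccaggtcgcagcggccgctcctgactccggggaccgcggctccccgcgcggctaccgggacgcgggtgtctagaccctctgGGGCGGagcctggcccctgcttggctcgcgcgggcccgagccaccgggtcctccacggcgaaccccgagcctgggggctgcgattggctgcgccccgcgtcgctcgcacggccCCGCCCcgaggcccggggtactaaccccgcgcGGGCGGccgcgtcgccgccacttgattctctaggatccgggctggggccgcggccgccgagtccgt
Prrx1 promoter, chr1:163313601-163313900, minus strand: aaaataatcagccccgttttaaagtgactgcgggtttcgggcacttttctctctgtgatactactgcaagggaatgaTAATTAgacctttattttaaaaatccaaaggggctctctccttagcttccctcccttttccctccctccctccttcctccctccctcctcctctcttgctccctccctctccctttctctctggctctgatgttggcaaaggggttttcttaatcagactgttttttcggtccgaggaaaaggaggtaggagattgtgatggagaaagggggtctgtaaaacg

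The distal windows of all 3 RUNX genes held ACCACA pairs separated by 2 bases, 29 and 37 bases after the start in *Runx1*, 24 and 32 after it in *Runx2*, and 134 and 126 before it in *Runx3*. RUNX letters alone were in 16.8% of the 32851 mouse promoter windows of this length, whereas the spaced pair (TGTGGTNNTGTGGT, either strand), which was searched for after these sequences had been seen, was in 7 of them (0.0213%). The proximal *Runx3* window held 3 GC boxes, letters found in 35.7% of windows, and that of *Prrx1* held TAATTA 173 bases before the start, found in 5.29%. E-box letters (CANNTG), not capitalised here, were in 72.3% of windows. These are matches of letters, not measured binding sites.

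The sorted populations were first checked against their labels. *Nt5e*, which encodes CD73, was at 244 and 198 TMM-normalised counts per 1000000 (CPM) in control gpSSPCs and 54.3 and 54.4 in control pSSPCs, and *Ly6a*, which encodes Sca1, at 298 and 830 CPM in control gpSSPCs and 1219 and 2789 in control pSSPCs. Here and below, the first value is replicate 1 and the second the sum of replicates 2 and 3, which were counted as 1 sample because, among genes of 5 to 99 counts, they differed by less than sampling noise, giving 2 samples per group. Among genes of at least 20 counts they differed by slightly more than that (1.59 to 1.92 in chi-square divided by its degrees of freedom, compared with 53.2 to 71.4 against replicate 1). The p-values thus measure the spread between these samples, which may be technical. *Zmpste24* had 11, 48 and 80 counts in the control gpSSPC libraries and 2, 21 and 29 in the CKO ones, and 1, 51 and 84 compared with 0, 28 and 41 in pSSPCs, so that residual reads remained in the CKO libraries. Libraries held 1333260 to 5315709 counts. Replicate 1 of every group stood apart: at an equal 1000000 counts it had 11694 to 12125 genes detected, compared with 13762 to 14797 in replicates 2 and 3.

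To learn whether growth plate and periosteal progenitors use different osteogenic factors, gpSSPCs were compared with pSSPCs in bulk RNA. In control mice *Runx2*, *Runx3*, *Sp7* and *Dlx5* had a larger share of the RNA of gpSSPCs and *Prrx1* of pSSPCs. At the study's thresholds (a log2 fold change beyond 0.25 in size with an unadjusted p under 0.05) these were 4 genes higher and 1 lower in gpSSPCs, where 2.18% of all genes tested were higher and 4.01% lower. The median log2 fold change of the 9 genes was 1.30, compared with -0.03 over all genes. By edgeR's quasi-likelihood test with Benjamini-Hochberg adjustment over all genes, 0 genes passed an adjusted p of 0.05 (0%), although 815 had an unadjusted p under 0.05 and DESeq2 called 251. With the replicate number as a block 1.24% of genes were higher and 2.37% lower at an adjusted p of 0.05, among them *Runx3* (higher) and *Prrx1* (lower). In bulk RNA, fewer cells of a type and less RNA per cell cannot be told apart.

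Among the RUNX genes, *Runx3* was at 196 and 109 CPM in control gpSSPCs and at 31.3 and 19.4 CPM in control pSSPCs. Both gpSSPC values were above both pSSPC values. The log2 difference was 2.60 ± 0.66 (SE), a 6.08-fold difference (edgeR adjusted p = 0.380), and with the replicate number as a block it was 2.57 with an edgeR adjusted p of 0.00134. *Runx2* was at 110 and 68.3 CPM in control gpSSPCs and at 28.8 and 21.0 CPM in control pSSPCs, again without overlap, a log2 difference of 1.85 ± 0.58 (edgeR adjusted p = 0.525). *Runx1* was at 51.6 and 57.6 CPM in control gpSSPCs and at 49.4 and 39.0 CPM in control pSSPCs, a log2 difference of 0.31 ± 0.77 that did not pass (edgeR adjusted p of 1).

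*Sp7* was at 61.3 and 76.1 CPM in control gpSSPCs and at 18.9 and 16.8 CPM in control pSSPCs, a log2 difference of 1.95 ± 0.59 (edgeR adjusted p = 0.484). Its samples agreed closely within each population. *Dlx5*, which with *Dlx6* is expressed in developing bone under BMP control, was at 111 and 122 CPM in control gpSSPCs and at 48.5 and 46.4 CPM in control pSSPCs, a log2 difference of 1.30 ± 0.49 (edgeR adjusted p = 0.685). *Dlx6* was near the limit of detection, with 13, 22 and 35 counts in the control gpSSPC libraries and 2, 2 and 1 in the control pSSPC libraries, and its log2 difference of 2.74 ± 1.92 did not pass (edgeR adjusted p of 1). *Dlx3* ranged from 7.71 to 16.4 CPM in control gpSSPCs and from 8.13 to 32.1 CPM in control pSSPCs, and these ranges overlapped (edgeR adjusted p of 1).

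*Prrx1* went the other way. It was at 44.5 and 96.4 CPM in control gpSSPCs and at 612 and 338 CPM in control pSSPCs, a log2 difference of -2.75 ± 0.55, or 6.71-fold (edgeR adjusted p = 0.324), and with the replicate block it was -2.80 with an edgeR adjusted p of 1.61e-05. Its highest value was in replicate 1 of control pSSPCs, and with replicate 1 of all groups left out the log2 difference was -1.72. *Twist1* was at 10.1 and 31.8 CPM in control gpSSPCs and at 32.9 and 59.6 CPM in control pSSPCs, without overlap but with nearly touching ranges, and its log2 difference of -1.14 ± 0.80 did not pass (edgeR adjusted p of 1).

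**Figure D1:**
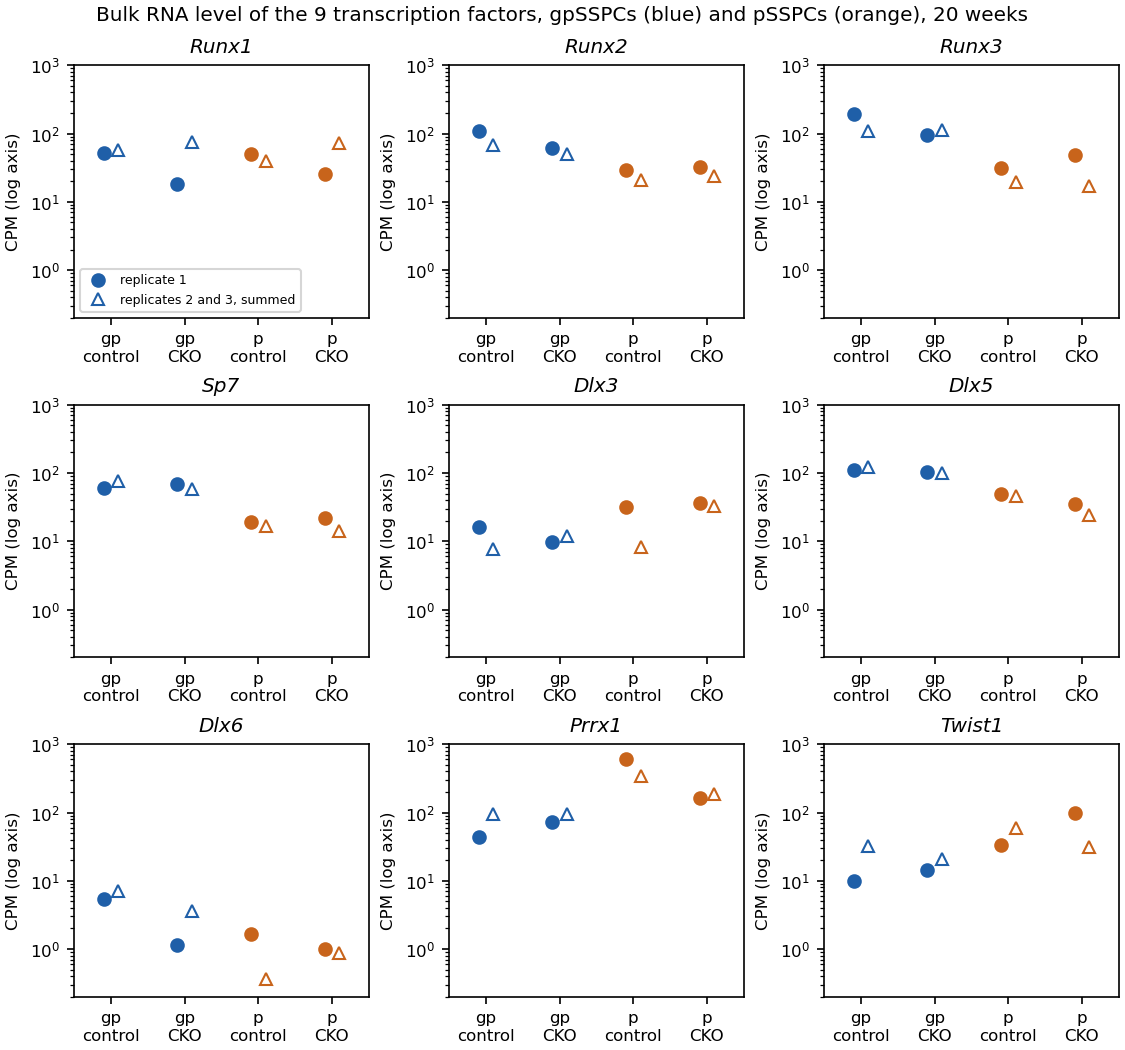
Each panel plots the bulk RNA level of a gene (TMM-normalised CPM, log axis) in gpSSPCs (gp, blue) and pSSPCs (p, orange) of control and CKO mice, with circles for replicate 1 and open triangles for replicates 2 and 3 summed. *Runx2*, *Runx3*, *Sp7* and *Dlx5* lie higher in blue and *Prrx1* higher in orange, while the symbols of *Runx1* in CKO mice and of *Dlx3* in control mice overlap between the populations.

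In CKO mice the same comparison gave 3 genes higher and 1 lower in gpSSPCs at the study's thresholds, with 2.35% of all genes higher and 1.96% lower. *Sp7* was at 68.8 and 57.5 CPM in CKO gpSSPCs and at 22.3 and 14.0 CPM in CKO pSSPCs, a log2 difference of 1.81 ± 0.59 (edgeR adjusted p = 0.855). *Dlx5* was at 105 and 102 CPM compared with 34.9 and 24.4 CPM, a log2 difference of 1.81 ± 0.50 (edgeR adjusted p = 0.648; adjusted p = 0.032 with the replicate block). *Runx3* was at 96.7 and 112 CPM compared with 48.6 and 17.0 CPM, a log2 difference of 1.68 ± 0.64 (edgeR adjusted p of 1; adjusted p = 0.033 with the replicate block). *Twist1*, at 14.2 and 20.9 CPM in CKO gpSSPCs and 97.2 and 31.7 CPM in CKO pSSPCs, had a log2 difference of -1.86 ± 0.82 (edgeR adjusted p of 1). *Prrx1* was at 72.2 and 94.6 CPM compared with 162 and 187 CPM, and its log2 difference of -1.06 ± 0.52 missed the study's thresholds (edgeR adjusted p of 1). For *Runx2*, with 62.0 and 50.1 CPM compared with 31.9 and 24.05 CPM, the log2 difference was 1.01 ± 0.57 (edgeR adjusted p of 1). Over all genes edgeR called 0 at an adjusted p of 0.05, 568 had an unadjusted p under 0.05 and DESeq2 called 107. With the replicate block 1.25% of genes were higher and 1.11% lower, among them *Runx3* and *Dlx5* (both higher).

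Genes known as targets or partners of these factors were counted from lists chosen for this lineage, to be read against the 2.18% and 4.01% of all genes that were higher and lower in controls and the 2.35% and 1.96% in CKO mice. Of 22 tested genes for bone matrix or known to be driven by RUNX2 or SP7, 8 were higher and 0 lower in control gpSSPCs at the study's thresholds, with a median log2 difference of 1.58, and in CKO mice 8 were higher and 0 lower with a median of 1.88. *Alpl*, the alkaline phosphatase that frees phosphate for mineral, was at 919 and 1012 CPM in control gpSSPCs and at 170 and 147 CPM in control pSSPCs (log2 difference 2.61 ± 0.40, edgeR adjusted p = 0.279). *Pth1r*, the receptor of parathyroid hormone and its related peptide, had a log2 difference of 2.59 ± 0.48, and *Col10a1*, the collagen of hypertrophic cartilage, of 2.36 ± 0.51. In CKO mice *Bglap*, which encodes osteocalcin, led this list at 2.49 ± 0.46 (edgeR adjusted p = 0.315). Of 32 tested regulators and partners, 5 were higher and 2 lower in control gpSSPCs, led by the cartilage factor *Sox6* (106 and 58.6 CPM compared with 13.2 and 9.96, log2 difference 2.85 ± 0.63, edgeR adjusted p = 0.354). *Prrx2*, the paralogue of *Prrx1*, was at 24.8 and 40.5 CPM in control gpSSPCs and at 1187 and 60.9 CPM in control pSSPCs, so that its log2 difference of -4.25 ± 1.16 (edgeR adjusted p = 0.405) rested mainly on replicate 1. Of 16 tested genes of the BMP pathway, which include ligands, receptors, inhibitors and *Smad1*, 0 were higher and 1 lower in control gpSSPCs. That gene was *Bmp4*, at 31.1 and 26.2 CPM in gpSSPCs and 212 and 102 CPM in pSSPCs (log2 difference -2.45 ± 0.63, edgeR adjusted p = 0.381). The median log2 difference of the 16 BMP genes went the other way in controls, at 0.84, and was -0.15 in CKO mice.

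Markers of mature cell types moved with the population. All 9 of 9 chondrocyte markers were higher in control gpSSPCs at the study's thresholds, with summed levels of 50944 and 36005 CPM compared with 12367 and 6105 CPM in control pSSPCs and none at 0. *Col2a1* was the most abundant of them in control gpSSPCs and *Chad* in control pSSPCs. Of the 6 osteoblast (OB) markers tested, 3 were higher in control gpSSPCs, and the 7 markers of the list summed to 58647 and 21556 CPM compared with 15395 and 4686 CPM, with *Ibsp* the most abundant in control gpSSPCs. Of the 9 markers of periosteal mesenchymal cells (PMSCs), 5 were lower in control gpSSPCs. Haemoglobin and other erythroid markers summed to at most 152 CPM in any replicate 1 and to 1237 to 6618 CPM in replicates 2 and 3. The part of these cell types in the levels of the 9 factors was not tested.

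ATAC-seq asked whether the chromatin around these genes differed as well. Peaks were counted that overlapped the gene body or 50 kb on either side of it, among the 50000 strongest peaks of each library, because the authors called between 59209 and 101606 peaks per library. Of the 9 genes, 4 had more peaks in every gpSSPC library than in any pSSPC library and 1 had fewer, where 12.8% of the 19068 genes tested were higher without overlap and 7.63% lower. All 5 passed the exact permutation test adjusted over all genes, as did 35.7% of genes, so a difference between these populations was common. Libraries of the same population and genotype shared peaks with a Jaccard index of 0.622 to 0.782, compared with 0.351 to 0.411 between populations.

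At *Runx3* the control gpSSPC libraries had 19, 17 and 21 peaks and the CKO ones 22, 22 and 22, whereas the pSSPC libraries had 1, 2 and 1 in controls and 4, 3 and 3 in CKO mice. The means were 20.5 ± 2.07 and 2.33 ± 1.21 (SD, n = 6 libraries each), an 8.79-fold difference (two-sided exact permutation p = 0.00216, the smallest that 6 against 6 allows, adjusted p = 0.0106). At *Prrx1* there were 6, 7 and 6 peaks in control and 3, 5 and 5 in CKO gpSSPCs, and 13, 14 and 16 in control and 17, 14 and 14 in CKO pSSPCs. The means of 5.33 ± 1.37 and 14.7 ± 1.51 (SD, n = 6) differed in the opposite direction (exact permutation p = 0.00216, adjusted p = 0.0106). At *Sp7* the gpSSPC libraries had 14 to 16 peaks and the pSSPC libraries 9 to 12, with means of 14.5 ± 0.837 and 10.3 ± 1.03 (SD, n = 6, exact permutation adjusted p = 0.0106). The window of *Sp7* also holds 5 other coding genes, among them its relative *Sp1*. *Dlx5* had 8 to 10 peaks in gpSSPCs and 3 to 6 in pSSPCs, and *Dlx6*, whose window largely coincides, 8 to 11 and 4 to 6 (exact permutation adjusted p = 0.0106 for each).

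The other 4 genes overlapped between the populations. *Runx2*, the longest of them, had 17 to 31 peaks in gpSSPCs and 12 to 21 in pSSPCs, a difference of 6.67 peaks (exact permutation p = 0.0303, adjusted p = 0.0774). *Runx1* had 19 to 26 compared with 16 to 22 peaks (adjusted p = 0.153), *Dlx3* 8 to 11 compared with 5 to 10 (adjusted p = 0.176) and *Twist1* 1 to 3 compared with 2 to 4 (adjusted p = 0.14, all exact permutation tests). The counts depended on how many peaks were kept. With all deposited peaks, whose number differed between libraries, *Runx3* and, in the other direction, *Twist1* were the 2 genes without overlap, where 10.3% of all genes were higher and 2.62% lower. With the 25000 strongest they were *Runx1*, *Runx3* and *Prrx1*, where 9.32% were higher and 7.4% lower. *Runx3* and *Dlx5* passed the adjusted test in both settings, as did 26.9% and 23.1% of all genes, and *Sp7* in neither (exact permutation adjusted p = 0.125 with all peaks and 0.834 with the 25000 strongest). With all peaks the adjusted p of the exact permutation test was 0.0584 for *Prrx1* and 0.172 for *Dlx6*.

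**Figure D2:**
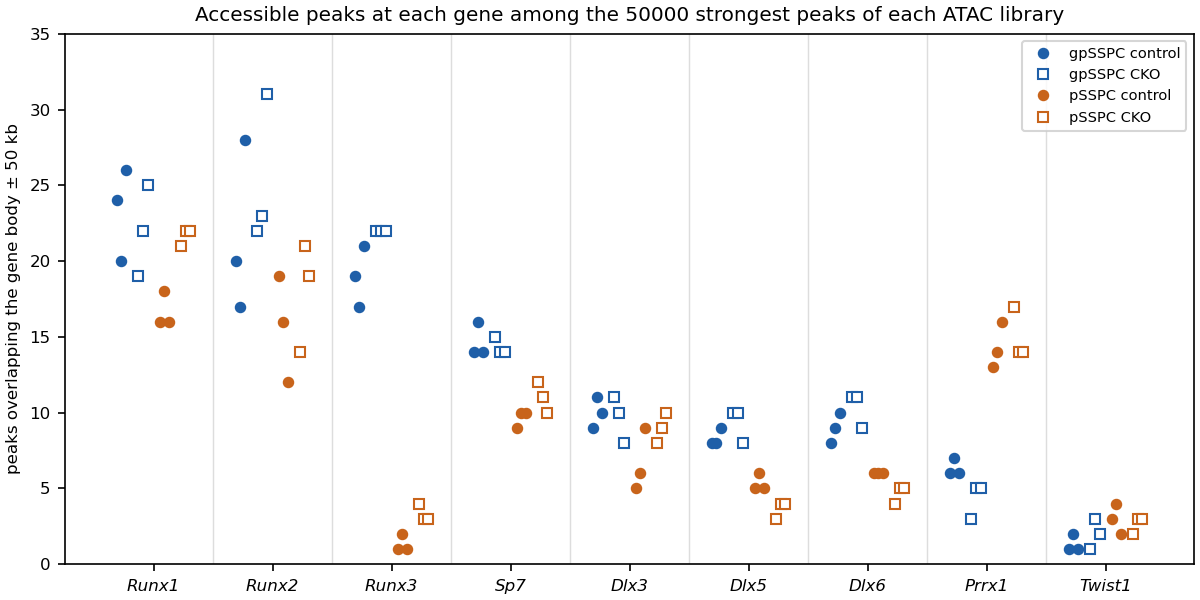
Points give the number of ATAC-seq peaks (50000 strongest per library) overlapping each gene body or 50 kb on either side, for the 3 libraries of each group. gpSSPC libraries (blue) lie above pSSPC libraries (orange) without overlap at *Runx3*, *Sp7*, *Dlx5* and *Dlx6* and below them at *Prrx1*.

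Peaks of the 12 libraries were merged into 101169 regions to see where these differences lay. Of the 26 regions at *Runx3*, 11 (42.3%) were called in all 6 gpSSPC libraries and in 0 of the 6 pSSPC libraries, a pattern that 8.21% of all regions had, and 0 showed the reverse. A region about 40 kb upstream, chr4:135079788-135081126, and another about 25 kb upstream, chr4:135095574-135096404, were called in 6 gpSSPC libraries and in 3 pSSPC libraries, the latter being the 3 CKO ones in both cases. The only *Runx3* region called in all 12 libraries lay beyond the 3′ end of the gene, at chr4:135203230-135204176. Of the 25 regions at *Prrx1*, 2 (8%) were called in 0 gpSSPC and 6 pSSPC libraries, compared with 6.82% of all regions, and both lay upstream, at chr1:163355812-163356867 and chr1:163361405-163362854. Of the 44 regions at *Runx2*, 6 were found in all gpSSPC and no pSSPC libraries and 2 the reverse, so that regions of both kinds stood within the same gene. At *Sp7* 3 of 20 regions were of the first kind, at *Dlx5* 2 of 11 and at *Dlx3* 0 of 16.

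**Figure D3:**
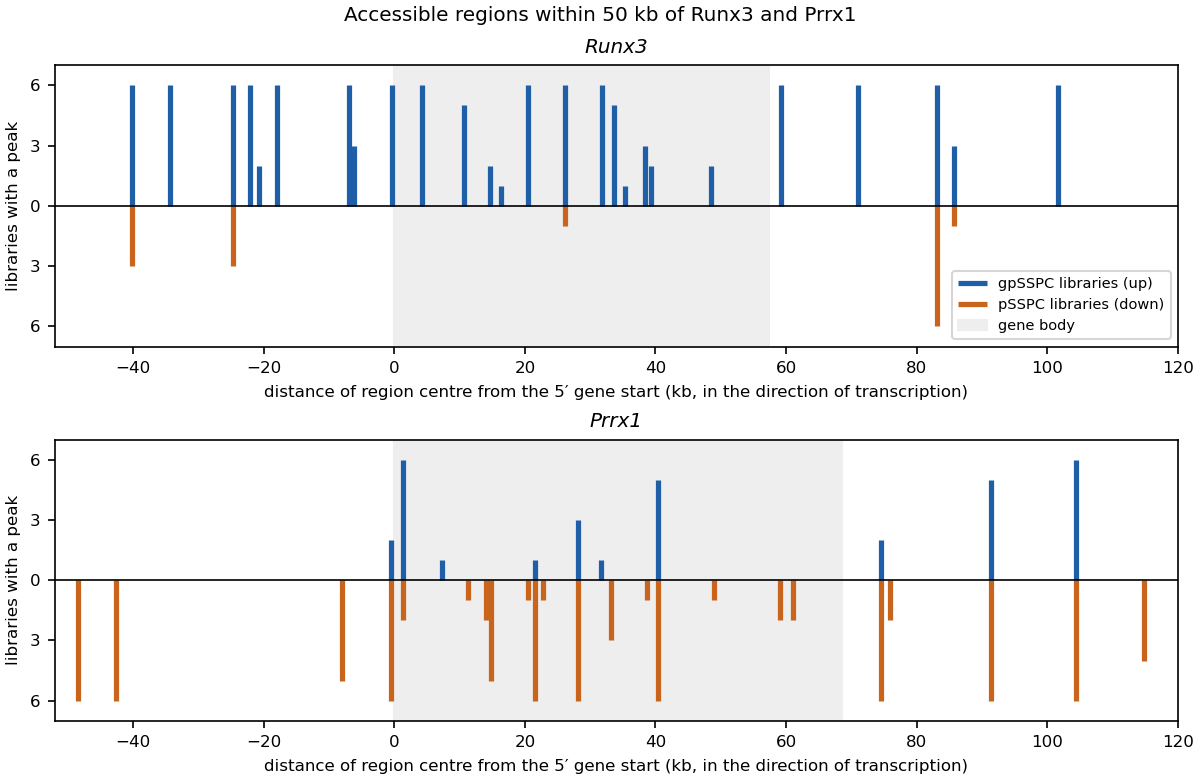
Each line is a merged accessible region, placed by the distance of its centre from the 5′ gene start (kb), with the number of the 6 gpSSPC libraries (blue, up) and the 6 pSSPC libraries (orange, down) that have a peak in it, and grey marking the gene body. At *Runx3* 11 of 26 regions reach 6 upward and nothing downward, and at *Prrx1* the regions upstream of the gene have orange lines only.

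Open starts of the RUNX genes were then listed for the 2 populations. The share of all transcript starts with a given pattern was not counted. Of all merged regions, 8.21% were called in 6 gpSSPC and 0 pSSPC libraries. The distal start of *Runx1*, whose sequence with the paired RUNX letters is given above, had a peak within 250 bp in 6 of 6 gpSSPC libraries and 0 of 6 pSSPC libraries, and in 2 of 6 pSSPC libraries, both CKO, when all deposited peaks were used. Its proximal start had a peak in all 12 libraries. Both *Runx3* starts were open in 6 gpSSPC and 0 pSSPC libraries, or in 2 (distal) and 4 (proximal) pSSPC libraries with all peaks. The 2 distal ones were both CKO, and the proximal ones were 1 control and 3 CKO. The distal peak ranked between 999 and 4216 by strength in the gpSSPC libraries, and between 54153 and 81768 in the 2 pSSPC libraries that had it. Here and below, ranks are places in peak lists of different lengths and are given as a description. *Runx2* was open at its distal start in all 12 libraries, with ranks of 16813 to 37130 (median 30888) in gpSSPCs and 15813 to 30395 (median 19873) in pSSPCs, whereas a proximal start at chr17:44736648 had a peak in 2 gpSSPC and 6 pSSPC libraries (3 and 6 with all peaks). Proximal starts at chr17:44735634 and chr17:44735710 each had a peak in 1 gpSSPC and 6 pSSPC libraries, but in 5 and 6 with all peaks. Of the windows with the spaced RUNX letters, that of *Runx2* was open in both populations, and those of *Runx1* and *Runx3* had a strong peak in gpSSPCs only.

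Both *Sp7* starts had a peak in 6 of 6 gpSSPC libraries and in 0 of 6 pSSPC libraries, with or without the weaker peaks. *Prrx1* starts had a peak in 1 gpSSPC and 6 pSSPC libraries, or in 4 and 6 with all peaks. *Dlx5* and *Twist1* were open in all 12 libraries, *Dlx6* in 6 gpSSPC and 4 pSSPC libraries, and *Dlx3* in 3 of each, and with all peaks *Dlx6* was open in 6 of each and *Dlx3* in 5 of each. These counts are a description of the calls, were not tested and have no share over all transcript starts beside them.

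**Figure D4:**
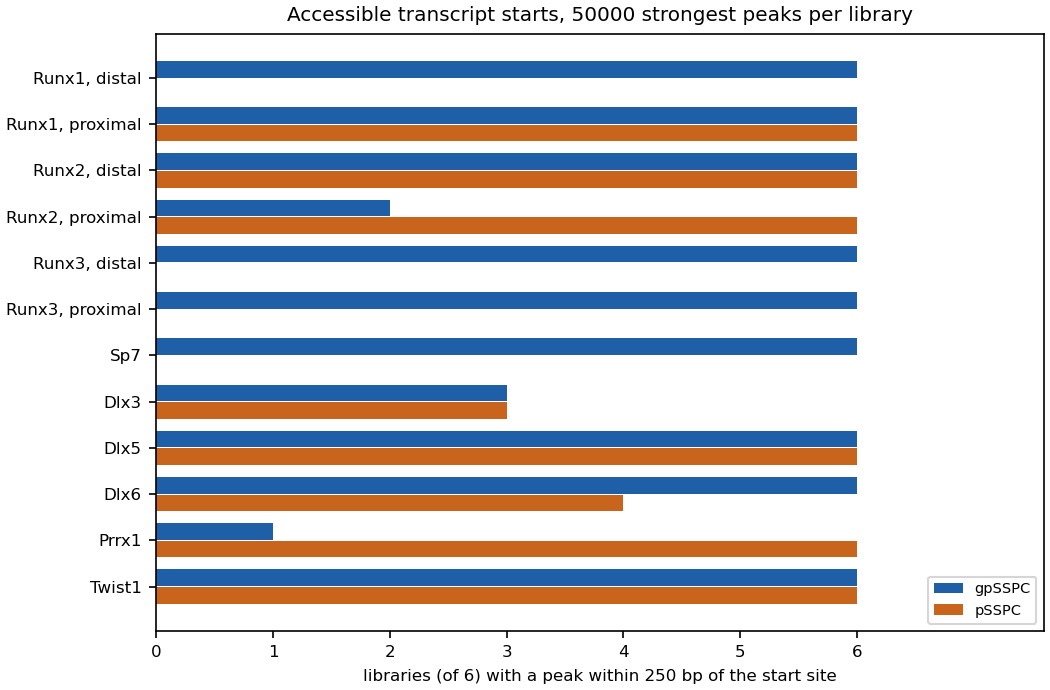
Bars give how many of the 6 gpSSPC (blue) and 6 pSSPC (orange) ATAC-seq libraries have 1 of their 50000 strongest peaks within 250 bp of a transcript start, with the distal and proximal starts of the RUNX genes apart. The *Runx1* distal, both *Runx3* and the *Sp7* starts have 6 blue and 0 orange libraries, and *Prrx1* has 1 and 6.

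The effect of *Z24* deletion on the 9 genes was tested next within each population, with controls as the background. In gpSSPCs 0 of the 9 genes passed the study's thresholds, where 0.121% of all genes were higher and 0.0987% lower in CKO cells, and edgeR called 0 genes at an adjusted p of 0.05 (29 at an unadjusted p under 0.05, 0 by DESeq2). With the replicate block 0.0228% of genes were higher and 0.038% lower, none of the 9 among them. The median log2 difference of the 9 genes was -0.20. *Runx2* was at 110 and 68.3 CPM in control and 62.0 and 50.1 CPM in CKO gpSSPCs (log2 difference -0.67 ± 0.56, edgeR adjusted p of 1), *Runx3* had a difference of -0.55 ± 0.62 (edgeR adjusted p of 1), and *Sp7* of -0.12 ± 0.57 (edgeR adjusted p of 1). A p that misses the threshold with 2 samples per group and standard errors of this size does not show that the levels were alike. Among the genes downstream of these factors 2 of 22 were lower in CKO gpSSPCs at the study's thresholds. *Col10a1* was at 1017 and 667 CPM in control and 242 and 270 CPM in CKO gpSSPCs (log2 difference -1.72 ± 0.49, edgeR adjusted p of 1), and *Alpl* at 919 and 1012 CPM in control and 489 and 487 CPM in CKO gpSSPCs (log2 difference -0.98 ± 0.38, edgeR adjusted p of 1). The 9 chondrocyte markers had a median log2 difference of -0.94, with 1 lower (*Col9a1*) at the study's thresholds and none at 0, and summed to 50944 and 36005 CPM in control and 43452 and 23143 CPM in CKO gpSSPCs, where *Chad* was the most abundant. The 4 hypertrophic chondrocyte markers had a median of -0.64, with 1 lower (*Col10a1* itself). The part of these cells in the levels of *Col10a1*, *Alpl* and the 9 factors was not tested.

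In pSSPCs *Prrx1* was the only 1 of the 9 genes past the study's thresholds, where 0.547% of genes were higher and 1.56% lower in CKO cells. It was at 612 and 338 CPM in control and 162 and 187 CPM in CKO pSSPCs, without overlap. The log2 difference of -1.44 ± 0.52 had an edgeR adjusted p of 1, and of 0.188 with the replicate block. Without replicate 1 of control pSSPCs it was -0.97, and without replicate 1 of all groups -0.83. The 9 PMSC markers had a median log2 difference of -0.61 in the same comparison, with 1 lower (*Igfbp6*) and none at 0, and summed to 32377 and 36155 CPM in control and 22184 and 45661 CPM in CKO pSSPCs. Of the 7 BMSC markers 0 passed, with a median of -0.45. The part of these cells in the level of *Prrx1* was not tested. The difference between the populations in this effect was 1.68 ± 0.73 (edgeR adjusted p of 1 for the interaction), where 0.622% of genes were past the study's thresholds in that direction and 0.326% in the other. Within pSSPCs, 0 of 32 regulators and partners were higher and 1 lower at the study's thresholds by genotype (*Prrx2*), as were 0 and 1 of 16 BMP genes (*Bmp4*). *Prrx2* was at 1187 and 60.9 CPM in control and 44.0 and 112 CPM in CKO pSSPCs, so that the samples overlapped and the second went the other way. *Bmp4* was lower in CKO pSSPCs, with 212 and 102 CPM in control and 32.4 and 41.5 CPM in CKO cells (log2 difference -2.08 ± 0.62, edgeR adjusted p of 1). In pSSPCs edgeR called 0 genes at an adjusted p of 0.05 (277 at an unadjusted p under 0.05, 0 by DESeq2), and for the interaction 0 genes (125 and 0). With the replicate block these shares were 0.038% higher and 0.0607% lower in pSSPCs and 0.0152% and 0% for the interaction, none of the 9 among them. *Dlx5*, at 48.5 and 46.4 CPM in control and 34.9 and 24.4 CPM in CKO pSSPCs, did not pass (log2 difference -0.68 ± 0.49, edgeR adjusted p of 1).

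Peak counts by genotype rested on 3 against 3 libraries, for which the exact permutation test cannot go below p = 0.1, and 0 genes passed after adjustment. In gpSSPCs *Runx3* had more peaks in every CKO library (22, 22 and 22) than in any control (19, 17 and 21), and *Prrx1* fewer (3, 5 and 5 compared with 6, 7 and 6), while 1.56% of all genes were higher and 1.5% lower without overlap. *Runx2* overlapped, but within same-numbered pairs it had more CKO peaks each time (22, 23 and 31 compared with 20, 17 and 28). The exact permutation test within pairs cannot go below p = 0.25, and with all deposited peaks the *Runx2* difference turned negative. With all deposited peaks the difference at *Runx3* turned to -2.67 peaks while *Prrx1* stayed lower (-6.67), where 14.1% of all genes were lower without overlap, and with 5 kb flanks 0 of the 9 genes were without overlap. In pSSPCs *Runx1* (16, 18 and 16 in control, 21, 22 and 22 in CKO libraries) and *Runx3* (1, 2 and 1, and 4, 3 and 3) had more peaks in CKO cells without overlap, where 4.93% of genes did. *Dlx5* (5, 6 and 5 in control, 3, 4 and 4 in CKO libraries) and *Dlx6* (6, 6 and 6, and 4, 5 and 5) had fewer, where 3.31% of genes did. With the 25000 strongest peaks, none of these 4 pSSPC genes was without overlap and the difference at *Runx1* turned to -0.333 peaks. With all peaks *Runx1* alone of the 4 was without overlap, and *Dlx5* and *Dlx6* had 2 and 4 more peaks in CKO cells, where 11.3% of all genes were higher without overlap.

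scRNA-seq placed the factors in cell classes. After clustering, cells were named by marker genes as bone marrow stromal cell-like (BMSC-like), OB-like, chondrocyte-like, PMSC-like and pericyte-like, next to small classes of 17 endothelial-like (8 weeks) and 87 erythroid-like cells (16 weeks), types that the CD31 and Ter119 gates would remove. The libraries kept 993 Prx1Cre, 782 OsxCre, 2068 control and 2362 CKO cells, with medians of 1043, 925.5, 1427.5 and 1274 UMIs per cell. UMIs (unique molecular identifiers, which count captured transcripts) were summed over the cells of a class in each library and are given as CPM with exact Poisson 95% intervals. With 1 library per group there is no test between groups, and the intervals cover counting error only. The BMSC-like class held 567 Prx1Cre, 544 OsxCre, 1693 control and 2070 CKO cells, and in the same order there were 110, 131, 184 and 172 OB-like, 161, 74, 60 and 21 chondrocyte-like, and 127, 10, 63 and 30 PMSC-like cells. The OB markers summed to 253690 and 209100 CPM in the OB-like class at 8 weeks but to 92907 and 61648 CPM at 16 weeks, and *Zmpste24* was at 17.4, 43.3, 19.4 and 3.14 CPM over all cells of the Prx1Cre, OsxCre, control and CKO libraries. The paper's methods give the cell numbers of the control and CKO libraries the other way round, with 2068 for the *Z24* fl/fl cells. The titles were followed here, and *Zmpste24* was lower in the library titled CKO.

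The RUNX genes differed in the class where each was highest. *Runx1* was highest in BMSC-like cells of every library, at 308 CPM (95% interval 262 to 358) with Prx1Cre, 287 (242 to 338) with OsxCre, 311 (290 to 333) in the control and 345 (324 to 366) in the CKO library. In chondrocyte-like cells it was at 7.38 to 22.4 CPM. *Runx2* was at 147, 133, 150 and 146 CPM in BMSC-like cells of the 4 libraries, in that order, and at 145 (104 to 198), 184 (134 to 247), 204 (162 to 253) and 313 (247 to 391) CPM in OB-like cells. The intervals of these classes overlapped in the Prx1Cre, OsxCre and control libraries and did not in the CKO library. PMSC-like cells had 2, 0, 0 and 1 *Runx2* UMIs in 127, 10, 63 and 30 cells. The OsxCre class was too small to be placed below the other classes. The interval of the CKO class (0.452 to 99.5 CPM) lay below those of BMSC-like and OB-like cells of that library but overlapped that of its chondrocyte-like cells (38.3 to 175). *Runx3* was highest in chondrocyte-like cells, at 168 (135 to 207), 66.4 (39.3 to 105), 115 (76.7 to 167) and 255 (162 to 383) CPM, and between 27.6 and 44.7 CPM in BMSC-like cells.

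*Sp7* was highest in OB-like cells of every library, with 142 (101 to 194), 109 (71.1 to 159), 176 (138 to 223) and 187 (137 to 249) CPM, and in chondrocyte-like cells was at 85.9, 103, 86.5 and 44.4 CPM, with intervals that overlapped those of OB-like cells in both 8-week libraries. Its level in BMSC-like cells was alike in the 4 libraries, at 28.3 to 30.6 CPM, although the OsxCre cells had been selected through a *Sp7* regulatory sequence. *Dlx5* UMIs were found in all the main classes, with 83.6 to 149 CPM in OB-like, 63.4 to 81.4 in BMSC-like and 55.5 to 206 in chondrocyte-like cells. In PMSC-like cells it was at 39.8 to 53.6 CPM in the Prx1Cre, control and CKO libraries. OB markers summed to 9394 and 7827 CPM in BMSC-like cells of the Prx1Cre and OsxCre libraries. The part of RNA carried over between cells in such low levels was not tested. *Dlx6* was at 18.2 to 48.7 CPM in OB-like cells and at 5.59 to 18.2 in BMSC-like cells. *Dlx3* was found almost only in OB-like cells, with 4, 7, 13 and 2 UMIs there, 2 UMIs in PMSC-like cells of the control library and 0 UMIs in BMSC-like cells of all 4 libraries.

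*Prrx1* was highest in PMSC-like cells of the Prx1Cre library, at 211 CPM (148 to 290), and of the control library, at 229 (159 to 318), followed by BMSC-like cells at 185 (150 to 225) and 154 (139 to 169). In chondrocyte-like cells it was at 11.2 and 4.12 CPM in these libraries. In the CKO library it was at 134 CPM in BMSC-like (121 to 147) and at 134 CPM in the 33 pericyte-like cells. This order is among classes of at least 20 cells. The smaller pericyte-like classes of the OsxCre and control libraries were higher, at 448 and 280 CPM, from 7 UMIs each in 18 and 17 cells. The cells sorted through a *Prrx1* regulatory sequence thus included a class with 6 *Prrx1* UMIs in 161 cells (Prx1Cre) and 1 in 60 cells (control), while that class of the CKO library had 5 in 21 cells (55.5 CPM). *Twist1* was sparse, with 8 to 15 UMIs in the OB-like cells of each library (29.8 to 54.5 CPM) and 14.6 to 22.2 CPM in BMSC-like cells. In PMSC-like cells it was at 51.2 CPM (9 UMIs) with Prx1Cre and 26.2 CPM (4 UMIs) in the control library. Among classes of at least 20 cells, the class in which each factor was highest was the same for 36 of 36 pairs of gene and library when the 13 genes otherwise held out were allowed to shape the clusters, for 34 when libraries were merged without integration, for 34 with cells of at least 1000 UMIs and for 28 at a finer clustering.

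**Figure D5:**
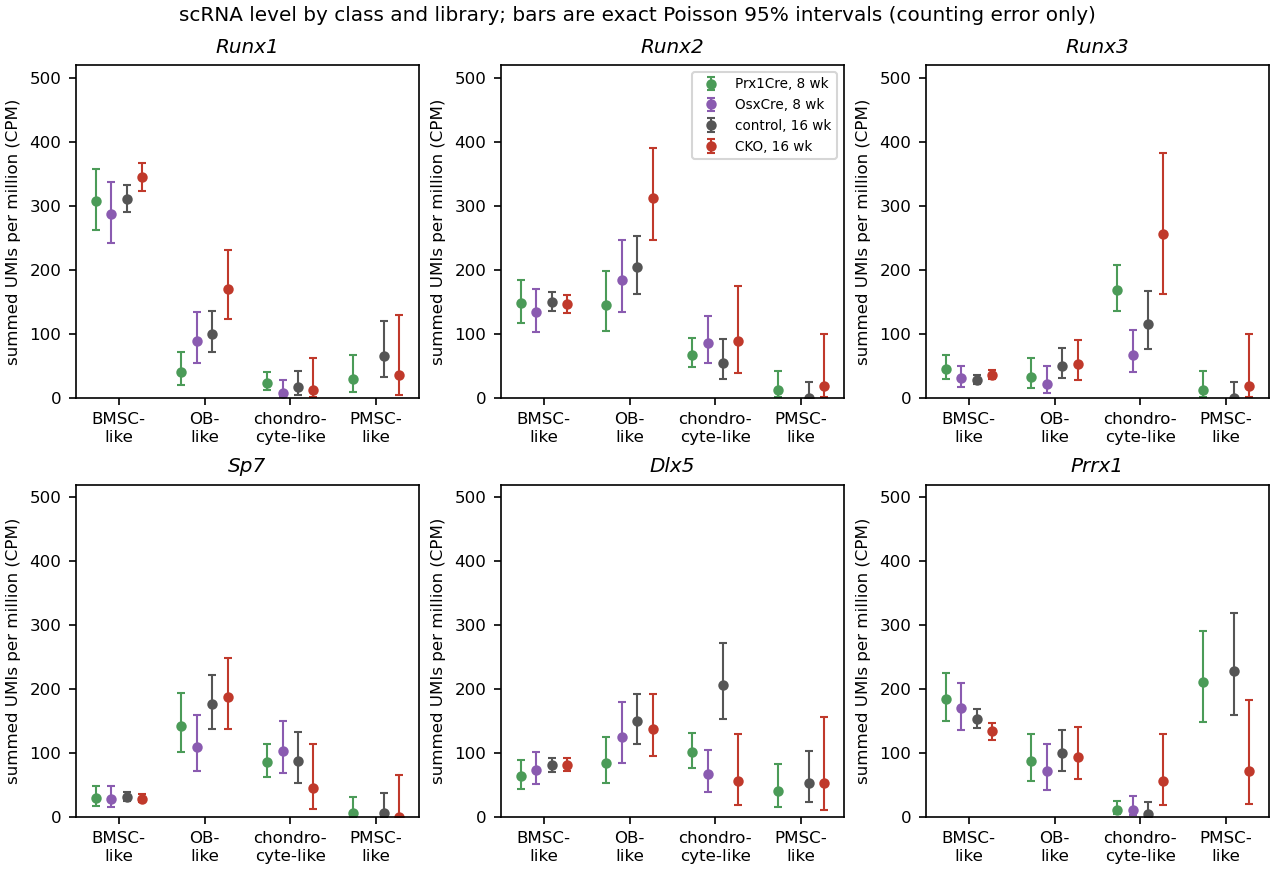
Points give the summed UMIs per 1000000 (CPM) of 6 genes in the 4 main classes of each scRNA-seq library (classes of under 20 cells left out), and bars the exact Poisson 95% interval of counting error. *Runx1* is highest in BMSC-like, *Sp7* in OB-like and *Runx3* in chondrocyte-like cells of all 4 libraries, while *Runx2* is at like levels in BMSC-like and OB-like cells of the Prx1Cre library. *Prrx1* is high in both PMSC-like and BMSC-like cells of the Prx1Cre and control libraries. In PMSC-like cells of the CKO library *Prrx1* is at 71.4 CPM, from 4 UMIs.

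Shares of cells with a UMI were compared as well. In the 16-week control, 35.6% of BMSC-like cells (95% Clopper-Pearson interval 33.3 to 37.9, median 1395 UMIs) had a *Runx1* UMI, compared with 6.67% of chondrocyte-like cells (1.85 to 16.2, median 3298 UMIs), and after thinning to 1000 UMIs per cell the shares were 23.99% of 1188 and 1.85% of 54 cells. For *Runx3* the order was reversed: 31.7% of chondrocyte-like cells (20.3 to 45.0) and 4.08% of BMSC-like cells (3.19 to 5.13) had a UMI, or 11.1% and 2.36% after thinning. Shares did not follow the levels throughout. For *Sp7*, higher by CPM in OB-like cells, 27.2% of OB-like and 28.3% of chondrocyte-like cells of the control had a UMI, as did 16.0% and 25.7% with OsxCre. After thinning these were 7.96% and 11.1% in the control and 12.7% and 11.9% with OsxCre, compared with 21.4% and 5.56% with Prx1Cre and 16.3% and 4.76% in the CKO library. In the Prx1Cre library *Runx2*, at like CPM in both classes, was found in 31.8% of OB-like (median 1857.5 UMIs) and 12.3% of BMSC-like cells (median 899 UMIs), or in 19.05% and 13.3% after thinning. For *Sp7* and *Runx2* no order of the classes was read from these shares.

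Clustered more finely, the 8-week cells gave 135 OB-like cells, where the coarser clustering had 241, and 112 cells led by *Mmp13*, *Spp1*, *Kcnk2*, *Angpt4* and *Wif1*, which were given no name. *Runx2* was at 107 and 132 CPM in these OB-like cells and at 304 and 277 CPM in the unnamed cells of the Prx1Cre and OsxCre libraries, and *Dlx5* at 49.0 and 100 compared with 228 and 169 CPM. *Sp7* had no such order, with 134 and 119 compared with 171 and 84.3 CPM. These OB-like cells (72 Prx1Cre and 63 OsxCre) had a median of 2524 UMIs per cell, and the unnamed cells (41 and 71) had a lower median. CPM values are shares of all UMIs of a class, so the order of *Runx2* and *Dlx5* need not hold per cell. The part of this difference in depth in the CPM values was not tested. The 9 factors had been held out of the genes that shaped the clusters, but clusters and levels come from the same cells, so these values are a description with no test.

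By genotype, the CKO library at 16 weeks was set against the control library in classes of at least 20 cells in each. The intervals of these ratios cover counting error in 1 library each. Of 33 such ratios, 9 had an interval without 1. The share of all genes with such an interval was not counted, so this number has no background and is a description. In OB-like cells *Runx2* was 1.53 times (1.11 to 2.12) and *Runx1* 1.71 times (1.09 to 2.71) as high in the CKO library, while *Sp7* was at 1.06 times (0.714 to 1.55) and *Dlx5* at 0.925 times (0.589 to 1.43). The summed OB markers were lower in that class of the CKO library, 61648 compared with 92907 CPM, and the 7 BMSC markers higher, 6036 compared with 4437 CPM. The part of these markers in the ratios was not tested. Per cell the *Runx2* counts were close, with 77 UMIs in 172 CKO and 82 in 184 control cells and a UMI in 34.3% and 33.7% of them (*Runx1* in 19.8% and 19.6%), or 26.1% and 22.1% (*Runx1* 16.3% and 8.85%) after thinning to 1000 UMIs, while all UMIs of the class summed to 246351 in the CKO and 402306 in the control library. In chondrocyte-like cells *Runx3* was 2.21 times (1.22 to 3.98) and *Dlx5* 0.269 times (0.0839 to 0.672) as high, on 21 CKO and 60 control cells. The 23 *Runx3* UMIs of the CKO library lay in 8 cells (38.1%, 18.1 to 61.6) and the 28 of the control library in 19 (31.7%, 20.3 to 45.0), so that the shares of cells differed less than the levels. *Prrx1* in PMSC-like cells was at 71.4 CPM in the CKO library, from 4 UMIs in 30 cells, and at 229 CPM in the control library, from 35 UMIs in 63 cells, a ratio of 0.312 (0.0805 to 0.873). In chondrocyte-like cells *Prrx1* went the other way, at 13.5 times (1.51 to 637), from 5 UMIs in the CKO and 1 in the control library. In erythroid-like cells *Runx1* was 3.3 times (1.46 to 8.14) as high, on 36 CKO and 51 control cells. In BMSC-like cells, where the counts were deepest, *Runx1* was 1.11 times (1.01 to 1.21) and *Prrx1* 0.869 times (0.755 to 1.00) as high. BMSC-like cells came from a deeper cluster with a median of 1915.5 UMIs, with 1065 control and 1061 CKO cells, and from a shallower one with a median of 810 UMIs, with 628 control and 1009 CKO cells.

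Between the Cre lines at 8 weeks, *Runx3* in chondrocyte-like cells was 0.395 times (0.224 to 0.660) as high with OsxCre as with Prx1Cre, from 18 UMIs in 74 cells and 90 UMIs in 161 cells. *Runx1* in OB-like cells was 2.2 times as high with OsxCre, with a counting interval of 1.01 to 5.05. The 7 BMSC markers, all detected and led by *Cxcl12*, summed to 2821 CPM in that class with OsxCre and 931 CPM with Prx1Cre, and their part in this ratio was not tested. *Runx2* in OB-like cells was at 1.27 times (0.806 to 1.99) and *Sp7* at 0.768 times (0.449 to 1.29). Of 25 ratios at 8 weeks, 2 had an interval without 1, those of *Runx3* in chondrocyte-like and *Runx1* in OB-like cells. Here too the share over all genes was not counted. For *Prrx1* the ratio was 0.919 (0.679 to 1.24) in BMSC-like cells, and only 10 PMSC-like cells came from the OsxCre library, too few to set against the 127 of Prx1Cre.

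The genes whose level was most like each factor were ranked by Pearson's r of log2(CPM + 10) among 4087 genes. This was done over the 16 combinations of class and library with at least 20 cells, the erythroid-like class (51 control and 36 CKO cells) being left out. For *Runx1* they were *Cul1* (r = 0.968), *Arrdc4*, *H2-K1*, *Igfbp4* and *Thsd7a*, and for *Prrx1* *Ebf1* (r = 0.955), *Ecm1*, *Sulf1*, *Tagln2* and *Aldh2*. *Runx2* was most like *Lmo7* (r = 0.919), followed by *Inafm1* and by *Ibsp* (r = 0.895), the bone sialoprotein gene. *Sp7* was most like *Gpc1* (r = 0.904), and *Runx3* was most like *Mdfi* (r = 0.900), which encodes an inhibitor of myogenic factors. *Dlx6* was most like *Fign* (r = 0.906), *Dlx5* like *Ddx50* (r = 0.862) and *Twist1* like *Ube2e2* (r = 0.824), the last from 178 UMIs in all. The combinations share libraries and class depth, so these values are given as a description.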

How the data were processed

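Bulk RNA-seq (modified Smart-seq2 on 1000 cells) was, per the labels and methods, aligned with STAR to mm10 and counted with HTSeq, and the authors deposited UMI-deduplicated counts per gene. ATAC-seq reads were aligned with Bowtie2, and peaks were called by the authors per library with MACS2 2.2.7.1. The deposited peak lists give the signal (pileup, not scaled for depth), −log10 p and q values, and the ratio (fold enrichment) over local background. scRNA-seq was deposited as UMI counts per gene and cell from Cell Ranger 3.1.0. Per the labels, tools named without a version also include DESeq2, HOMER and bedtools.

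RNA counts were tested with edgeR 4.0.16 (TMM, filterByExpr with a minimum count of 10, quasi-likelihood test, Benjamini-Hochberg adjustment over 13173 genes) in 1 fit over all groups, with replicates 2 and 3 summed (8 samples from 12 libraries). Replicates 2 and 3 differed by 0.805 to 0.972 in chi-square divided by its degrees of freedom (genes of 5 to 99 counts) and 1.59 to 1.92 (at least 20 counts), and from replicate 1 by 10.2 to 14.2 and 53.2 to 71.4. Same-numbered control and CKO libraries deviated together (correlations of 0.555 to 0.604), but so did replicates 2 and 3 of unlike number (0.550 to 0.565), so the numbers set replicate 1 apart from the other two. They were taken to pair the summed samples, and a fit with the replicate number as a block is given where it changed a call. ATAC peaks (50000 strongest by −log10 q, ties ordered by −log10 p) overlapping a gene body plus 50 kb were compared by two-sided exact permutation tests. In gpSSPCs same-numbered ATAC libraries deviated together (correlations of 0.202, 0.244 and 0.402) and were taken as pairs. Within pairs the exact permutation test by genotype cannot go below p = 0.25, so no call could change. Libraries held 12250713 to 46756821 tags. Cells with at least 200 genes were clustered per age with Seurat 5.3.0 (2000 variable features, 20 and 22 principal components, resolution 0.14 and 0.15, 13 genes including the 9 factors held out), a mixed cluster of 174 cells was clustered again, and doublets were kept, with no caller run. Libraries shared 0 to 10 barcodes.

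The 9 factors were named throughout. From each pathway list the genes past an adjusted p of 0.05 (up to 5 per direction) or, with none, the 3 of lowest unadjusted p were eligible, with *Zmpste24*, *Nt5e* and *Ly6a* as checks. Genes of like pattern were the 5 with the highest r. The members and lists were chosen with earlier results of these data known. The RNA and ATAC tests were also run on simulated counts of independent samples without a replicate effect. That check does not cover the difference between replicate 1 and the other replicates of the RNA data.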

Additional observations from a re-analysis of the deposited data

How the results depend on the processing

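The number of genes past an adjusted p of 0.05, which was 0 in each RNA comparison, depended on how the libraries were counted. With the replicate block it was 476 for the populations in controls, 311 for the populations in CKO mice, 8 for genotype in gpSSPCs, 13 for genotype in pSSPCs and 2 for the interaction. With DESeq2 it was 251 and 107 for the populations, and with no filter on low counts 89, 56, 5 (genotype in pSSPCs) and 2 (interaction). With each library counted as a sample it was 559 and 365 for the populations without the block, and with the replicate block 2074, 1475, 20, 334 and 13 in the order above. Leaving out libraries gave 0 to 9169, 0 to 8064, 0 to 5288, 0 to 8356 and 0 to 6866, the highest values coming without replicate 1, where the near-alike replicates 2 and 3 stood alone. Of the 9 factors, 3 to 8, 2 to 8, 0 to 7, 0 to 5 and 0 to 6 then passed the study's thresholds, as did 2.43% to 68.2%, 1.8% to 61.5%, 0.0891% to 43.9%, 0.615% to 62.4% and 0.369% to 56.1% of all genes. With each library as a sample these were 7 (8 with the block) for the populations in CKO mice, beside 14.1% (26.6%) of all genes, and 2 (3 with the block) for genotype in pSSPCs, beside 10.2% (21.6%). With the block they were 1 in gpSSPCs (10.3%) and 2 for the interaction (15.9%). The cause was not tested.

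Signs turned only where the difference was small against its error or a library was left out. For genotype in gpSSPCs, *Runx1* became 0.034 with each library as a sample, and *Dlx3* 0.087 and 0.25 (with the block) and 0.019 with the replicate block. For genotype in pSSPCs, *Runx1* became -0.04 and *Sp7* -0.0038 with the replicate block, *Sp7* -0.034 with DESeq2, -0.032 with its size factors and -0.041 and -0.069 with each library as a sample, and *Dlx6* -0.065 with DESeq2 size factors and -0.033 with DESeq2. Leaving out libraries gave, for genotype in gpSSPCs, *Runx1* -0.29 to 0.50, *Runx3* -0.58 to 0.043, *Dlx3* -0.21 to 0.62 and *Prrx1* -0.23 to 0.44. For genotype in pSSPCs it gave *Runx2* -0.035 to 0.39, *Runx3* -0.55 to 0.72, *Sp7* -0.34 to 0.24, *Dlx6* -0.23 to 1.29 and *Twist1* -0.88 to 0.60. For the interaction it gave *Runx1* -0.94 to 0.27, *Runx3* -1.25 to 0.21, *Sp7* -0.37 to 0.22 and *Twist1* -1.36 to 0.30, and for the populations *Dlx3* -1.26 to 0.53 in controls and *Runx1* -0.64 to 0.64 in CKO mice.

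ATAC genes without overlap between populations numbered 5 (12.8% of all genes higher, 7.63% lower), and 2 with all peaks (10.3%, 2.62%) and 3 with the 25000 strongest (9.32%, 7.4%). By genotype in gpSSPCs there were 0 with 5 kb (0.975% of all genes higher, 0.737% lower) and 1 with 100 kb flanks (1.59%, 1.86%), and 2 to 4 on leaving out a library (2.45% to 4.73%, 3.03% to 3.94%). In pSSPCs there were 1 with all peaks (11.3%, 0.156%), 0 with the 25000 strongest (2.73%, 1.8%) and 1 with 5 kb (2.69%, 1.76%). With 5 kb flanks the population difference turned to -0.333 peaks at *Dlx3* and 0.167 at *Twist1*. By genotype in gpSSPCs all peaks gave -2.33 at *Runx2*, -2.67 at *Runx3* and -1 at *Dlx5* and *Dlx6*, and *Sp7* became 1.67 with the 25000 strongest and 0.667 with 100 kb. In pSSPCs the 25000 strongest gave -0.333 at *Runx1* and -0.667 at *Runx2*, and all peaks 2 at *Dlx5*, 4 at *Dlx6* and 0.333 at *Twist1*. Leaving out a library gave in gpSSPCs *Runx1* -3 to 0.167, *Sp7* -0.667 to 0.333 and *Dlx3* -1 to 0.5, and in pSSPCs *Prrx1* -0.333 to 1.5 and *Twist1* -0.833 to 0.167. ATAC replicate numbers did not pair the libraries in pSSPCs (correlations of 0.038, 0.066 and 0.21), and in the fit with the replicate block the 5 genes without overlap each had an exact permutation adjusted p of 0.0375, where 24.7% of genes passed. Of 162 scRNA-seq levels, 3 fell outside the counting interval when libraries were merged, 6 with all variable features and 4 at the finer clustering, as did 4 of 126 with cells of at least 1000 UMIs. Of 162 shares of cells with a UMI, 65 fell outside it after thinning. Start sites with all peaks and the spaced RUNX motif were added after seeing the data.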
